A study of Mus musculus with 6 samples.

Results

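Glutathione, glucuronic acid and sulfate conjugation enzymes were followed in single-cell RNA data from mouse intestinal organoids. Members were the gene symbols starting with Gsta, Gstm, Gstp, Gstt, Gstk, Gsto, Mgst, Ugt1a, Ugt2a, Ugt2b or Sult, without pseudogene names containing -ps, that reached a level of 1 or more in at least 1 of 6 libraries, in counts per 1000000 UMIs of a library (CPM). A UMI (unique molecular identifier) marks 1 captured RNA molecule. The rule kept 38 of 64 such symbols, out of 55335 genes in the files and 13703 genes that reached the same level. Just inside the level were Ugt1a5, with a highest value of 1.73 CPM, and Gsto2, with 2.83 CPM. Just outside were Ugt1a2 at 0.71, Sult4a1 at 0.658 and Ugt1a6b at 0.545 CPM.

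Organoids are small epithelial structures grown in gel from gut cells. Here they came from wild-type C57BL/6 mice of 8 weeks and were grown from single cells, and the 6 libraries fall into 5 groups. At day 4 (96 hours) there was 1 library each for organoids given 5 µM of an RXR antagonist (RXRi), organoids given 10 µM all-trans retinoic acid (atRA), organoids grown in medium free of vitamin A, and organoids given the solvent DMSO as vehicle. At day 1 (24 hours) there were 2 libraries of DMSO vehicle organoids. The labels write the dose unit as µm, which was read as micromolar. Compounds were added at day 0 and again at day 3, per the labels, and the labels do not say whether the vitamin A-free organoids received DMSO. All groups share the culture schedule, with Wnt3a-conditioned medium, the GSK3 inhibitor CHIR99021 and the ROCK inhibitor Y-27632 from day 0 to day 3. The day-1 libraries thus fell within that period and the day-4 libraries after it. The medium also holds N-acetylcysteine, a precursor of glutathione. The design text names 2 mice in duplicate, but no label ties a library to a mouse, so the day-4 differences have no replicate check.

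Conjugation makes a drug, toxin or metabolite more soluble by joining it to a carrier molecule. Glutathione S-transferases (the Gst and Mgst genes) join glutathione to electrophiles, UDP-glucuronosyltransferases (the Ugt genes) join glucuronic acid, and sulfotransferases (the Sult genes) join sulfate taken from the donor PAPS. In the intestine these enzymes are known mainly from absorptive enterocytes, which meet food compounds first and pump the conjugates back into the lumen. RXR is the nuclear receptor partner of the retinoic acid receptor and of several receptors that sense lipids, bile acids and foreign compounds.

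The upstream sequences of 5 members are shown because they were among those called with the RXR antagonist. Ugt2b36, Ugt2b5, Ugt2a3 and Sult1b1 are consecutive kept members on chromosome 5 and were all far lower with it, while Gsta3 was higher with it and carries the letters of the antioxidant response element core. Each sequence is the 250 bases before the RefSeq gene start in GRCm38.p6, 5′ to 3′ on the gene's own strand. Capitals mark AGGTCA, the core hexamer bound by many nuclear receptors, and TGACNNNGC, the antioxidant response element core, on either strand.
Ugt2b36 (chr5:87092556-87092805, minus strand): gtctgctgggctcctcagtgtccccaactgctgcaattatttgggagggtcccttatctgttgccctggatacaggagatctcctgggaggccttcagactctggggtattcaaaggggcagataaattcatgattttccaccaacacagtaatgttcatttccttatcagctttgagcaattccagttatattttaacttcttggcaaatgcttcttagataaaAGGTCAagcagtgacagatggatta
Ugt2b5 (chr5:87140341-87140590, minus strand): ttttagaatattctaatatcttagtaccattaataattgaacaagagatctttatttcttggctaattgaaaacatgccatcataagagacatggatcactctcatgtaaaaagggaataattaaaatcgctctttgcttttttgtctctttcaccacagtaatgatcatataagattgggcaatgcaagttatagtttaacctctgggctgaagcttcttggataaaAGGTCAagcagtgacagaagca
Ugt2a3 (chr5:87337196-87337445, minus strand): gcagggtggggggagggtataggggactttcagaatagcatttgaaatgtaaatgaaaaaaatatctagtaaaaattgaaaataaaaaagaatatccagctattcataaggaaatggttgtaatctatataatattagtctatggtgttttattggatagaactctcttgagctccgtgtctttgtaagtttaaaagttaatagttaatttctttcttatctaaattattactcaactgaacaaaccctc
Sult1b1 (chr5:87538196-87538445, minus strand): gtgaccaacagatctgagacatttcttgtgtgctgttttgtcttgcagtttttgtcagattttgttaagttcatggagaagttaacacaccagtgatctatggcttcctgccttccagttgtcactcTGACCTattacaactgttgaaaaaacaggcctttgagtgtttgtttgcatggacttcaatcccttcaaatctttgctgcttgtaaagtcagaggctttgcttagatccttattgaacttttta
Gsta3 (chr1:21240335-21240584, plus strand): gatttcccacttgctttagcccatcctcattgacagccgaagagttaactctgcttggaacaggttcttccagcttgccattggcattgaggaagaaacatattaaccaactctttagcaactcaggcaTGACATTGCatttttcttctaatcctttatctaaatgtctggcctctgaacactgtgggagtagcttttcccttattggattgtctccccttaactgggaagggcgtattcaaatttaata

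AGGTCA stood 25 bases upstream of the start in Ugt2b36, 22 bases upstream in Ugt2b5 and 123 bases upstream in Sult1b1, where it reads TGACCT on the gene's strand. Of the 36 members with a RefSeq promoter, 7 (19.4%) held AGGTCA on either strand, against 13.8% of all 27025 promoters. The other 4 were Gstk1, which was higher with the RXR antagonist, and Ugt1a7c, Ugt1a9 and Ugt2b35, which were not called there, while Ugt2a3 held none. Nor did Gstm6, Gstm7, Gstt1, Mgst2, Sult2b1, Sult6b2 and Ugt1a1, which were also lower with the RXR antagonist. TGACNNNGC stood in 3 members (8.33%), namely Gsta3, Gstm5 and Mgst1, against 10.1% of all promoters. Gstm5 and Mgst1 were not called with the RXR antagonist. The AP-1 letters TGANTCA stood in 6 members (16.7%), namely Gstm5, Gstp1, Gstp2, Mgst2, Ugt1a6a and Ugt2b35, against 6.87% of all promoters. GCGTG, the dioxin response element core, stood in 8 members (22.2%, against 28.2%), and TATAAA in 4 (11.1%, against 13.0%). The direct repeat of AGGTCA spaced by 1 base and the full HNF1 palindrome stood in 0 of the 36 and in 0.037% and 0.0074% of all promoters. All were searched on both strands, and the direct repeat contains AGGTCA. Only the first listed start of each gene was searched, and 9 members have more than 1 start. These are matches of letters, not sites shown to be bound.

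Between 3468 and 5327 cells per library were kept, holding 47258161 to 62567817 UMIs. One UMI is counted per captured 3′ end, so levels of different genes needed no length correction. Libraries shared 2 to 17 cell barcodes with each other. The 2 day-1 libraries differed by more than the counting error of UMIs (chi-square of 68.4 per degree of freedom over 14297 genes). That measure takes UMIs as independent, so the sampling of different cells also adds to it. The RXR antagonist library had the lowest sum of 8 enterocyte markers, with 1732 CPM there, 64230 with retinoic acid, 17050 in vitamin A-free medium and 25700 in day-4 vehicle, and 3671 and 6622 in day-1 libraries 1 and 2. All 8 enterocyte markers were at least 2-fold lower with the RXR antagonist than in day-4 vehicle. The 9 regenerative-state markers, such as Ly6a and Clu, summed to 7730 CPM with the RXR antagonist, 48.0 with retinoic acid, 168 in vitamin A-free medium and 68.7 in day-4 vehicle, and to 1376 and 1608 in day-1 libraries 1 and 2. On both sums the day-1 libraries came nearest to the RXR antagonist library, but on the stem and cycling marker sums the retinoic acid library did. The stem markers summed to 184 CPM with the RXR antagonist, 239 with retinoic acid, and 657 and 479 in day-1 libraries 1 and 2. The cycling markers summed to 337, 338, 2324 and 2026 CPM in the same order. Red blood cell markers were at 0 UMIs in all 6 libraries, and the fibroblast markers summed to at most 0.224 CPM. In summed libraries, fewer cells of a type and less RNA per cell cannot be told apart, and the part these cell differences play in the ratios was not tested.

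Together the 38 genes made up 14910 CPM with the RXR antagonist, 22190 with retinoic acid, 11000 in vitamin A-free medium and 13580 in day-4 vehicle, and 6907 and 8511 in day-1 libraries 1 and 2. Retinoic acid organoids thus held 1.63 times the day-4 vehicle sum, RXR antagonist organoids 1.10 times and vitamin A-free organoids 0.81 times. The leading gene differed: Gsta4 was highest with the RXR antagonist and at day 1, Gstm1 with retinoic acid, and Mgst3 in the vitamin A-free and vehicle libraries of day 4. Of the 38 genes, 22 had their highest level with retinoic acid, 9 with the RXR antagonist and 7 in day-4 vehicle. The lowest level was in day-1 library 1 for 22 genes, in day-1 library 2 for 6 and in the RXR antagonist library for 5. These counts were not made over all genes, so they cannot be read as particular to the members.

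**Figure D1:**
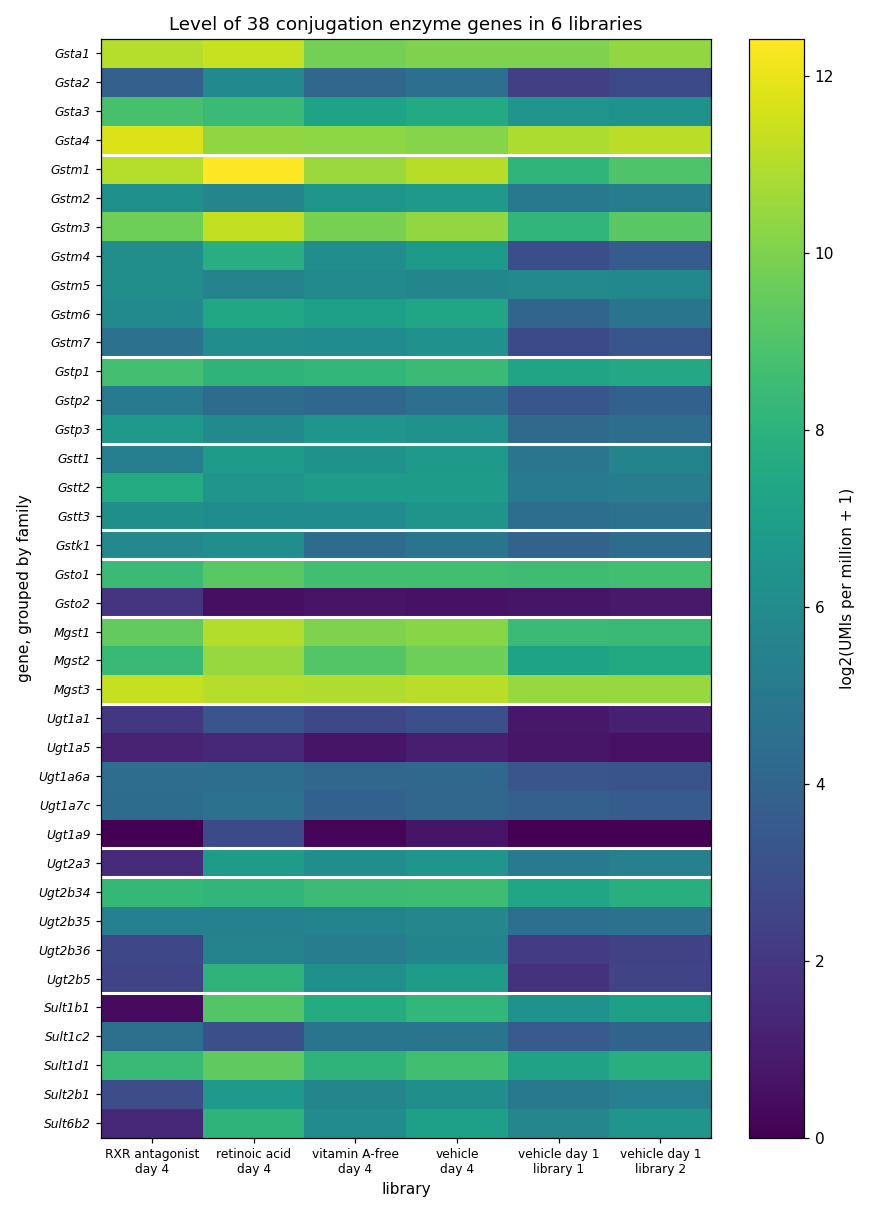
Level of each of the 38 genes, as log2(CPM + 1), in 6 libraries (columns), with genes in rows grouped by family. Sult1b1, Sult6b2 and Ugt2a3 are each darker in the RXR antagonist column than in the other 5, Gsta4 is brightest with the RXR antagonist and Gstm1 with retinoic acid.

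A gene was called higher or lower at day 4 when its ratio to the vehicle library on the log2(CPM + 1) scale was at least 2-fold, with no test, since each group is 1 library and the 3 comparisons share the vehicle. With the RXR antagonist, 4 of the 38 genes were higher, against a background of 7.92% of the 13703 genes, and 11 were lower, against 10.1%. Their median log2 ratio was -0.28, and that of all genes -0.04, relative to which 5 were higher (background 8.42%) and 10 lower (background 9.5%). With retinoic acid, 8 were higher (background 2.71%) and 2 lower (background 8.03%), with a median of 0.32 against -0.31 over all genes. Relative to that median of all genes, 14 were higher (background 4.58%) and 1 lower (background 3.01%). In vitamin A-free medium, 0 were higher (background 0.372%) and 1 was lower (background 0.241%), with a median of -0.30 against 0.11 over all genes. In all 3 comparisons, 16 of the 38 stayed within 2-fold.

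**Figure D2:**
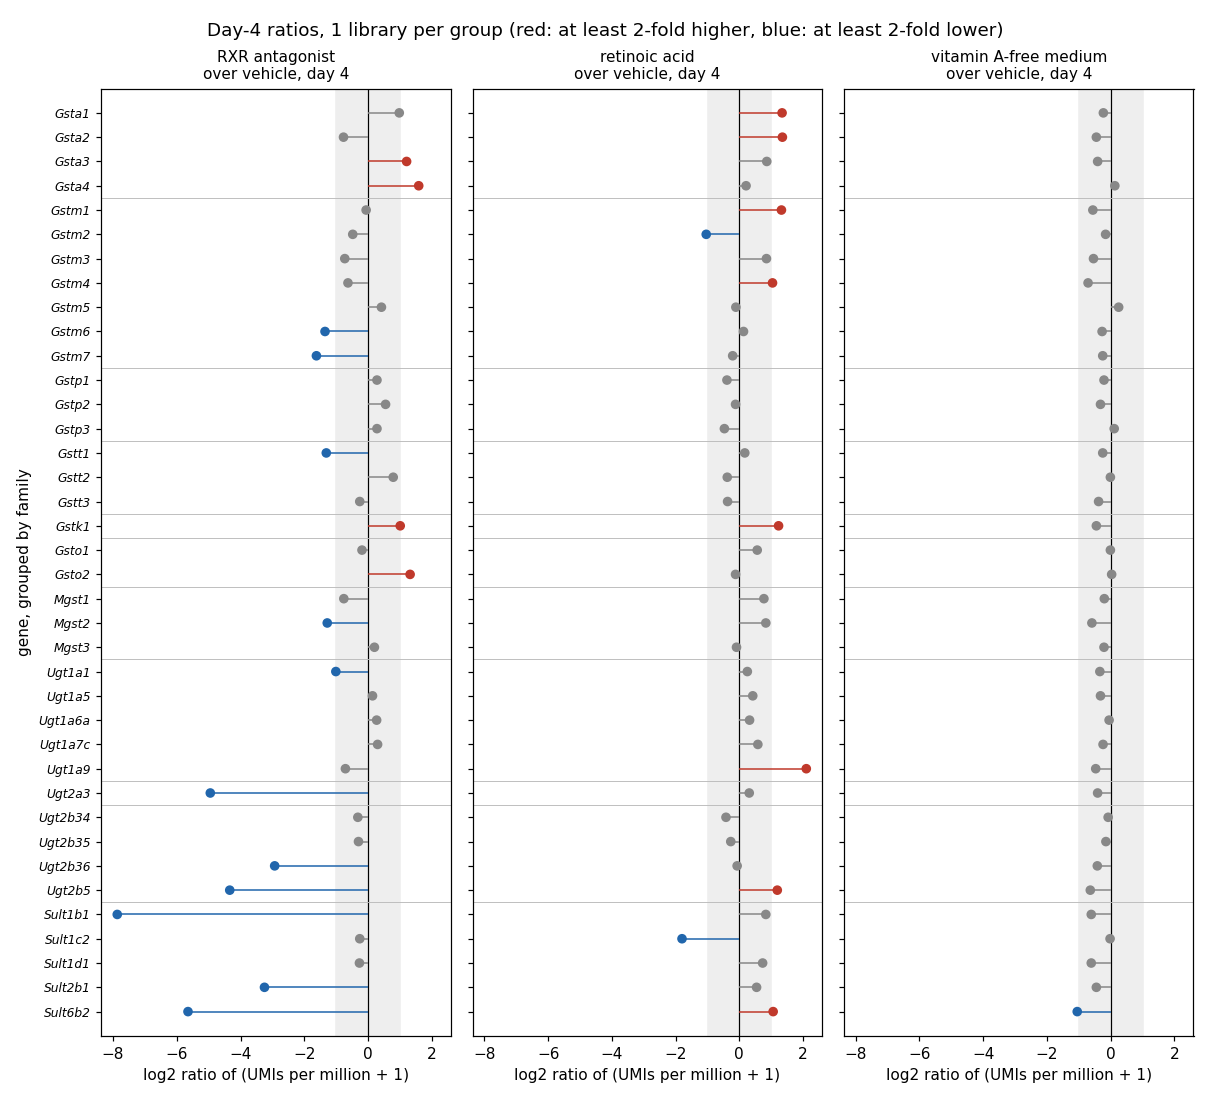
Day-4 log2 ratios of (CPM + 1) over vehicle for the 38 genes in 3 treatments, 1 library each. Red points are at least 2-fold higher, blue points at least 2-fold lower and the grey band is within 2-fold. Of the 11 blue points of the RXR antagonist panel 6 are Ugt2 and Sult genes, reaching -7.87 for Sult1b1.

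Of the 11 families, the alpha-class transferases had the highest summed ratio with the RXR antagonist, 2.48-fold over day-4 vehicle. The summed Gsta level was 6007 CPM with the RXR antagonist, 4407 with retinoic acid, 2316 in vitamin A-free medium and 2419 in day-4 vehicle, and 3030 and 3702 in day-1 libraries 1 and 2. Gsta4, which conjugates the lipid peroxidation product 4-hydroxynonenal, had 3460 CPM with the RXR antagonist, 1327 with retinoic acid, 1254 in vitamin A-free medium and 1149 in day-4 vehicle, and 1899 and 2254 in day-1 libraries 1 and 2. It was 3.01-fold higher with the RXR antagonist than in day-4 vehicle (95% interval 2.98 to 3.04, exact, for counting error only, as are the intervals that follow), and both day-1 libraries also lay above the 3 other day-4 libraries. Gsta3, known in mice for conjugating the epoxide of aflatoxin, had 453 CPM with the RXR antagonist, 355 with retinoic acid, 147 in vitamin A-free medium and 195 in day-4 vehicle, and 86.8 and 81.3 in day-1 libraries 1 and 2. The RXR antagonist library was 2.32-fold above vehicle (2.27 to 2.38), and retinoic acid came next. Gsta1 had 2082 CPM with the RXR antagonist, 2665 with retinoic acid, 899 in vitamin A-free medium and 1053 in day-4 vehicle, and 1039 and 1360 in day-1 libraries 1 and 2. It was 2.53-fold higher with retinoic acid than in vehicle (2.51 to 2.56), and its log2 ratio with the RXR antagonist, 0.98, lay just under the 2-fold level. Gsta2 shares 34.3% of the 31-base words in its last 400 transcript bases with Gsta1, so that shared reads may be split between them or missing from both. Gsta2 had 12.9 CPM with the RXR antagonist, 59.1 with retinoic acid, 16.2 in vitamin A-free medium and 22.6 in day-4 vehicle, and 4.09 and 5.88 in day-1 libraries 1 and 2. It was 2.61-fold higher with retinoic acid (2.44 to 2.80) and below vehicle with the RXR antagonist.

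The 7 mu-class genes lie in 1 cluster on chromosome 3 (chr3:107895821-108044894, GRCm38) and did not share 1 pattern. Their summed level was 3224 CPM with the RXR antagonist, 8503 with retinoic acid, 2848 in vitamin A-free medium and 4059 in day-4 vehicle, and 682 and 1255 in day-1 libraries 1 and 2, the highest with retinoic acid. Gstm1, the most abundant mu-class gene at day 4, had 2108 CPM with the RXR antagonist, 5490 with retinoic acid, 1499 in vitamin A-free medium and 2205 in day-4 vehicle, and 280.3 and 513 in day-1 libraries 1 and 2. It was 2.49-fold higher with retinoic acid than in vehicle (2.47 to 2.51) and lowest at day 1. Gstm3 had 819.6 CPM with the RXR antagonist, 2454 with retinoic acid, 936 in vitamin A-free medium and 1357 in day-4 vehicle, and 286 and 603 in day-1 libraries 1 and 2. Gstm4 had 69.7 CPM with the RXR antagonist, 225 with retinoic acid, 66.2 in vitamin A-free medium and 109 in day-4 vehicle, and 6.92 and 11.4 in day-1 libraries 1 and 2. Both had their highest level with retinoic acid, and Gstm4 was 2.07-fold above vehicle (2.00 to 2.14). Gstm6 had 61.0 CPM with the RXR antagonist, 172 with retinoic acid, 130 in vitamin A-free medium and 157 in day-4 vehicle, and 15.7 and 27.2 in day-1 libraries 1 and 2. Gstm7 had 24.4 CPM with the RXR antagonist, 66.4 with retinoic acid, 64.5 in vitamin A-free medium and 77.0 in day-4 vehicle, and 5.82 and 8.90 in day-1 libraries 1 and 2. These 2 were lower with the RXR antagonist than in vehicle, by 2.58-fold (2.47 to 2.69) for Gstm6 and 3.15-fold (2.95 to 3.37) for Gstm7. Gstm2 had 73.1 CPM with the RXR antagonist, 49.1 with retinoic acid, 91.8 in vitamin A-free medium and 102 in day-4 vehicle, and 31.7 and 37.2 in day-1 libraries 1 and 2. It went the other way from Gstm1 with retinoic acid, 2.08-fold below vehicle (1.99 to 2.18). Gstm5 had 68.3 CPM with the RXR antagonist, 46.8 with retinoic acid, 60.6 in vitamin A-free medium and 50.7 in day-4 vehicle, and 56.1 and 54.9 in day-1 libraries 1 and 2. Its 6 values lay closer together than those of any other mu-class gene.

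The pi, theta, kappa and omega classes had few day-4 calls. Gstp1, a pi-class enzyme that detoxifies electrophiles in many epithelia, had 423 CPM with the RXR antagonist, 265 with retinoic acid, 302 in vitamin A-free medium and 349 in day-4 vehicle, and 152 and 178 in day-1 libraries 1 and 2. Gstp2 had 32.6 CPM with the RXR antagonist, 20.1 with retinoic acid, 17.4 in vitamin A-free medium and 21.9 in day-4 vehicle, and 9.16 and 13.7 in day-1 libraries 1 and 2. It shares 91.6% of its 3′-end words with Gstp1, so the split between the pair is uncertain and shared reads may be missing from both. Gstp3 had 99.4 CPM with the RXR antagonist, 58.8 with retinoic acid, 88.3 in vitamin A-free medium and 82.0 in day-4 vehicle, and 18.7 and 21.5 in day-1 libraries 1 and 2. All 3 pi genes had their highest level with the RXR antagonist and their lowest at day 1, and none was 2-fold from vehicle at day 4. Gstt1, which conjugates small halogenated compounds, had 39.5 CPM with the RXR antagonist, 112 with retinoic acid, 83.4 in vitamin A-free medium and 99.6 in day-4 vehicle, and 28.2 and 47.9 in day-1 libraries 1 and 2. It was 2.52-fold lower with the RXR antagonist than in vehicle (2.39 to 2.66). Gstt2 had 198 CPM with the RXR antagonist, 87.5 with retinoic acid, 113 in vitamin A-free medium and 114 in day-4 vehicle, and 34.5 and 36.2 in day-1 libraries 1 and 2, highest with the RXR antagonist. Gstt3 had 70.8 CPM with the RXR antagonist, 65.7 with retinoic acid, 64.9 in vitamin A-free medium and 84.9 in day-4 vehicle, and 21.7 and 23.7 in day-1 libraries 1 and 2. Gstk1, an enzyme of mitochondria and peroxisomes, had 56.8 CPM with the RXR antagonist, 66.5 with retinoic acid, 19.9 in vitamin A-free medium and 27.7 in day-4 vehicle, and 14.7 and 19.7 in day-1 libraries 1 and 2. It was above vehicle by 2.05-fold with the RXR antagonist (1.92 to 2.19) and 2.40-fold with retinoic acid (2.26 to 2.55), the only gene of the 38 called higher in both on the plain ratio. Relative to the median of all genes, Gsta1 and Gsta3 were also called higher in both. Gsto1, an omega-class enzyme that reduces dehydroascorbate, had 357 CPM with the RXR antagonist, 603 with retinoic acid, 406 in vitamin A-free medium and 408 in day-4 vehicle, and 383 and 402 in day-1 libraries 1 and 2. Its levels were alike in 5 libraries and higher with retinoic acid. Gsto2 stayed between 0.41 and 2.83 CPM, and its 134 UMIs with the RXR antagonist against 27 in vehicle gave the fourth higher call there.

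The membrane-bound transferases were abundant throughout. Their summed level was 3618 CPM with the RXR antagonist, 5578 with retinoic acid, 3507 in vitamin A-free medium and 4243 in day-4 vehicle, and 1969 and 1997 in day-1 libraries 1 and 2. Mgst1, which guards membranes of the endoplasmic reticulum and mitochondria against lipid peroxides, had 694 CPM with the RXR antagonist, 2005 with retinoic acid, 1023 in vitamin A-free medium and 1177 in day-4 vehicle, and 351 and 344 in day-1 libraries 1 and 2. Mgst2, which can also make leukotriene C4, had 338 CPM with the RXR antagonist, 1460 with retinoic acid, 544 in vitamin A-free medium and 821 in day-4 vehicle, and 148 and 184 in day-1 libraries 1 and 2. Mgst2 was 2.43-fold lower with the RXR antagonist than in vehicle (2.38 to 2.47), and both genes were highest with retinoic acid. Mgst3, an enzyme with glutathione peroxidase activity, had 2586 CPM with the RXR antagonist, 2114 with retinoic acid, 1940 in vitamin A-free medium and 2245 in day-4 vehicle, and 1471 and 1469 in day-1 libraries 1 and 2. It varied least of the 3 and was within 2-fold of vehicle in every day-4 library.

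Glucuronosyltransferases of the Ugt1a locus (chr1:88070800-88220002, GRCm38) had low counted levels. Their summed level was 45.1 CPM with the RXR antagonist, 62.6 with retinoic acid, 36.1 in vitamin A-free medium and 42.0 in day-4 vehicle, and 22.9 and 21.5 in day-1 libraries 1 and 2. Ugt1a6a, which conjugates phenols, had 20.7 CPM with the RXR antagonist, 21.5 with retinoic acid, 16.4 in vitamin A-free medium and 17.0 in day-4 vehicle, and 8.62 and 8.38 in day-1 libraries 1 and 2. Ugt1a7c had 20.1 CPM with the RXR antagonist, 24.7 with retinoic acid, 13.5 in vitamin A-free medium and 16.2 in day-4 vehicle, and 12.8 and 11.4 in day-1 libraries 1 and 2. Neither was 2-fold from vehicle at day 4. Ugt1a1, Ugt1a5 and Ugt1a9 stayed below 10 CPM in every library. Ugt1a1, the bilirubin-conjugating enzyme, had 143 UMIs with the RXR antagonist against 355 in vehicle, 2.34-fold lower in CPM (1.93 to 2.87). Ugt1a9 had 365 UMIs with retinoic acid against 32 in vehicle, 9.42-fold higher in CPM (6.56 to 14.0), and 0 UMIs with the RXR antagonist. Ugt1a1, Ugt1a5, Ugt1a6a and Ugt1a9 share all of their last 400 transcript bases with another gene of the locus, so the division of 3′ reads among them is uncertain. Reads that fit more than 1 gene may also be missing from these levels and from the sum.

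The Ugt2 genes act on steroids, bile acids and drugs, and all 5 kept here lie in 1 cluster on chromosome 5 (chr5:86889767-87569027, GRCm38) together with Sult1b1 and Sult1d1. Ugt2b34 had 306 CPM with the RXR antagonist, 286 with retinoic acid, 362 in vitamin A-free medium and 383 in day-4 vehicle, and 159 and 218 in day-1 libraries 1 and 2. Ugt2b35 had 42.7 CPM with the RXR antagonist, 43.4 with retinoic acid, 47.3 in vitamin A-free medium and 52.7 in day-4 vehicle, and 22.5 and 23.8 in day-1 libraries 1 and 2. Both were within 2-fold of vehicle in all day-4 libraries. The next genes along the chromosome were not. Ugt2b36 had 5.42 CPM with the RXR antagonist, 45.6 with retinoic acid, 35.6 in vitamin A-free medium and 48.0 in day-4 vehicle, and 3.48 and 4.20 in day-1 libraries 1 and 2. Ugt2b5 had 4.83 CPM with the RXR antagonist, 268 with retinoic acid, 74.4 in vitamin A-free medium and 117 in day-4 vehicle, and 2.51 and 4.86 in day-1 libraries 1 and 2. Ugt2a3, whose human counterpart conjugates bile acids, had 1.93 CPM with the RXR antagonist, 111 with retinoic acid, 67.0 in vitamin A-free medium and 89.2 in day-4 vehicle, and 34.9 and 41.1 in day-1 libraries 1 and 2. With the RXR antagonist, Ugt2b36 was 8.86-fold (7.78 to 10.1), Ugt2b5 24.2-fold (21.2 to 27.8) and Ugt2a3 46.3-fold (37.6 to 57.7) below vehicle. Ugt2b5 was in addition 2.30-fold above vehicle with retinoic acid (2.23 to 2.37).

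Sulfotransferases showed the widest span. Sult1b1, which sulfates thyroid hormones and phenols, had 0.296 CPM with the RXR antagonist, 538 with retinoic acid, 198 in vitamin A-free medium and 302 in day-4 vehicle, and 82.4 and 134 in day-1 libraries 1 and 2. The 14 UMIs in the RXR antagonist library against 15111 in vehicle put it 1020-fold lower (607 to 1860), the largest day-4 ratio among members with UMIs in both libraries. Sult1d1, which sulfates catecholamines in mice and is the last member of the chromosome 5 cluster, had 341 CPM with the RXR antagonist, 681 with retinoic acid, 269 in vitamin A-free medium and 411 in day-4 vehicle, and 139.5 and 221 in day-1 libraries 1 and 2. It was within 2-fold of vehicle in all 3 treatments, so the 4 consecutive members from Ugt2b36 to Sult1b1 were low with the RXR antagonist while the 3 members on either side were not. Sult6b2 had 1.61 CPM with the RXR antagonist, 273 with retinoic acid, 62.2 in vitamin A-free medium and 130.2 in day-4 vehicle, and 53.2 and 88.3 in day-1 libraries 1 and 2. It was 81.0-fold lower with the RXR antagonist than in vehicle (64.6 to 103), 2.10-fold higher with retinoic acid (2.04 to 2.16) and 2.09-fold lower in vitamin A-free medium (2.00 to 2.19), the sole member called in all 3. Sult2b1, which sulfates cholesterol, had 6.56 CPM with the RXR antagonist, 104 with retinoic acid, 51.4 in vitamin A-free medium and 70.9 in day-4 vehicle, and 31.9 and 41.5 in day-1 libraries 1 and 2. It was 10.8-fold lower with the RXR antagonist (9.62 to 12.2). Sult1c2 had 23.0 CPM with the RXR antagonist, 7.25 with retinoic acid, 27.3 in vitamin A-free medium and 27.7 in day-4 vehicle, and 10.9 and 15.0 in day-1 libraries 1 and 2. It was 3.82-fold lower with retinoic acid than in vehicle (3.43 to 4.26), against the direction of the other Sult genes.

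**Figure D3:**
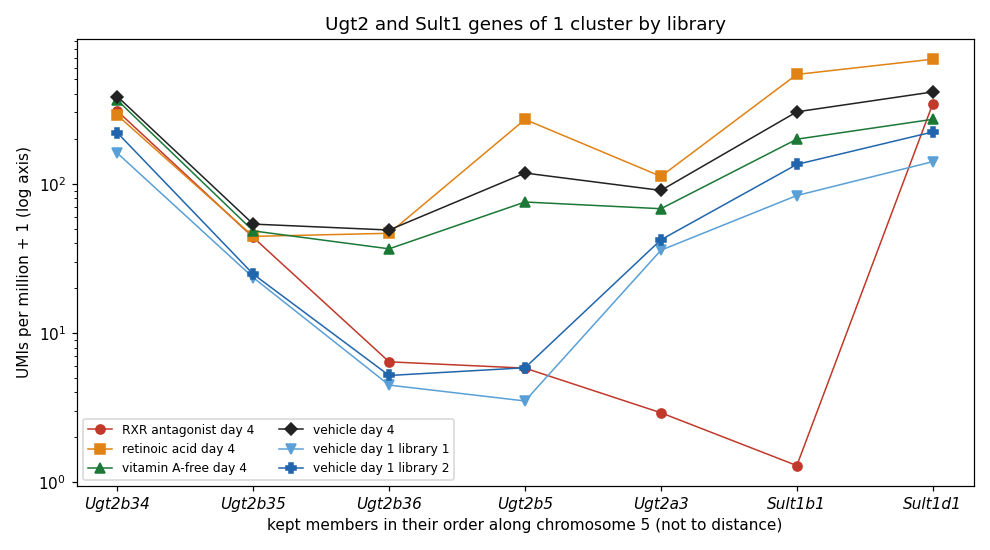
CPM + 1 (log axis) of the 7 members of the chromosome 5 cluster in gene order, not to distance, with 1 line per library. The RXR antagonist line drops below the other day-4 lines from Ugt2b36 to Sult1b1 and returns near them at Sult1d1; Ugt2b36 and Ugt2b5 are also low at day 1.

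To see in which cells the members were found, cells were clustered without the 38 genes and clusters were named from fixed marker lists. In the day-4 vehicle library, 29 of the 38 were at least 2-fold higher in enterocyte-like cells than in stem-like cells, against 9.55% of all genes, and 1, Gstm5, was lower, against 28.9%. The same count was 27 with retinoic acid (10.7% of all genes) and 28 in vitamin A-free medium (8.9%). In vehicle, Sult6b2 had 221 CPM in enterocyte-like and 1.44 in stem-like cells, Ugt2b5 208 and 2.20, and Gsta1 1772 and 33.8. For Gstm1 the levels were 3506 in enterocyte-like and 320 in stem-like cells, and for Mgst2 1331 and 125 CPM. Some members did not follow: Gsto1 had 418 in enterocyte-like and 427 in stem-like cells, Gstt2 95.3 and 143, and Gstm5 36.2 and 75.1 CPM. Gstt1 was highest in enteroendocrine-like cells, at 346 CPM against 132 in enterocyte-like cells (108 UMIs in 56 cells).

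The RXR antagonist library held too few enterocyte-like (1) and stem-like (32) cells to compare those classes with vehicle. Most of its cells were 1851 regenerative-like cells and 1411 cells of a cluster left unnamed, led by Nupr1 and Dmbt1. Since nearly all cells of both came from this 1 library, they may mark the library rather than a cell type. The regenerative-like cells had more Gsta4 (4302 against 2568 CPM) and Gsta1 (2592 against 1572) than the unnamed cluster, with both ratios under 2-fold. They had less Gstm1 (912 against 4053), Gstm3 (249 against 1743) and Mgst1 (433 against 1134 CPM). In all, 0 members were at least 2-fold higher in the regenerative-like cells (background 5.53%) and 15 were lower (background 3.2%). Sult1b1 was at 0.298 CPM in the regenerative-like cells and 0.331 in the unnamed cluster, so its low level was shared by both. Set against the stem-like cells of vehicle, the regenerative-like cells had 11 members higher (background 10.7%), among them Gsta4 (4302 against 186) and Gsta1 (2592 against 33.8), and 5 lower (background 22.6%), namely Gstm7, Ugt2b36, Ugt2b5, Ugt2a3 and Sult1b1.

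**Figure D4:**
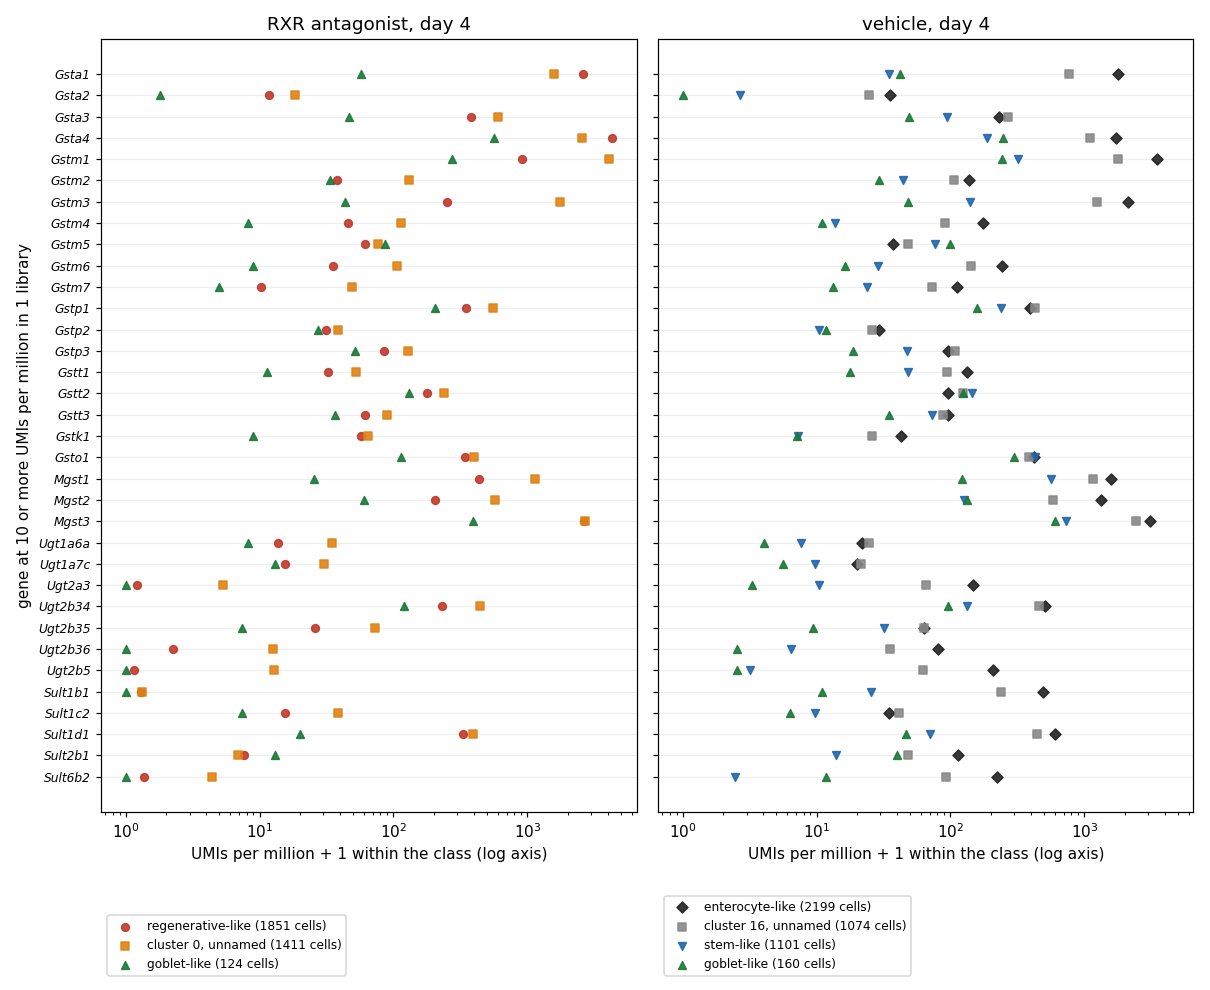
CPM + 1 within cell classes (log axis) for the 34 members that reached 10 CPM in a library, in the RXR antagonist library (left) and the day-4 vehicle library (right). In vehicle the enterocyte-like points lie right of the stem-like points for most genes, and Sult1b1 lies near 1 in all RXR antagonist classes.

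Within enterocyte-like and stem-like cells, fewer members passed 2-fold with retinoic acid than in the whole libraries. In enterocyte-like cells, retinoic acid against vehicle gave 1 member higher, Ugt1a9 (background 2.03%), and 2 lower, Gstm2 and Sult1c2 (background 3.82%). Nearly all of these cells came from clusters led by Fabp6, Akr1b7 and Reg1 with retinoic acid, and from other clusters, led by Ctrb1 and G0s2, in vehicle. Gstm1 had 6196 CPM in enterocyte-like cells of retinoic acid organoids and 3506 in those of vehicle, a 1.77-fold ratio against 2.49-fold in the whole libraries. In stem-like cells, 2 members were higher with retinoic acid, Ugt2b5 and Sult6b2 (background 0.708%), from 42 against 29 and 26 against 19 UMIs, and 0 were lower (background 1.71%). In vitamin A-free medium, enterocyte-like cells had 0 members called in either direction (background 0.343% higher and 0.161% lower), and stem-like cells had 1 higher, Gsta4, at 382 against 186 CPM in vehicle (background 0.255%), and 0 lower (background 0.168%). A further unnamed cluster shared by these 2 libraries had 0 members called (background 0.635% higher and 0.255% lower). Enteroendocrine-like cells, 79 and 56 in number, had 7 members past 2-fold upward (background 12.0%) and 3 downward (background 9.74%), but 4 of the 7 and 2 of the 3 had under 10 UMIs in both libraries, and Gsta2, Gsta3 and Ugt1a1 had 1 UMI against 0. Goblet-like cells there had 0 higher (background 4.66%) and 2 lower (background 2.88%), of which Sult6b2 had 7 UMIs against 14 and Ugt1a1 had 0 against 2. With retinoic acid the goblet-like cells had 11 members higher (background 6.43%) and 3 lower (background 5.98%), of which 3 and 1 had under 10 UMIs in both libraries. Goblet-like cells were the one class with at least 50 cells in both the RXR antagonist library (124) and the vehicle library (160), and their cluster also held Paneth cell genes. There, 6 members were higher with the RXR antagonist (background 8.09%) and 11 lower (background 19.5%), of which 2 and 3 had under 10 UMIs in both libraries. Gsta4 had 565 CPM in RXR antagonist goblet-like cells and 245 in vehicle ones, and Mgst1 24.7 and 121. Sult1b1 had 0 UMIs against 13, and Sult6b2 0 against 14, and the part of free RNA in such small counts was not tested.

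The day-4 and day-1 vehicle libraries give the one comparison with a replicate. Between them, 32 of the 38 genes rose by day 4 and 1 fell (edgeR quasi-likelihood test, Benjamini-Hochberg adjusted p under 0.05 over 17592 genes), where 17.3% of all genes tested rose and 16.9% fell. The median log2 fold change of the 38 was 1.40, and that of all genes -0.03. Day 1 fell within the period with Wnt3a-conditioned medium, CHIR99021 and Y-27632 and day 4 after it. Time and these additions therefore cannot be told apart. The spread comes from the 2 day-1 libraries alone, which may be loadings of 1 culture, so the p-values measure the spread between these samples and the lone day-4 library is assumed to vary like them. Ugt2b5 rose most among members with over 10 CPM, with a log2 fold change of 5.17 (SE 0.34, adjusted p = 0.000935). Ugt2b36 rose by 3.82 (SE 0.17, adjusted p = 0.000527), Gstm4 by 3.74 (SE 0.28, adjusted p = 0.00112) and Gstm7 by 3.57 (SE 0.25, adjusted p = 0.00106) on the log2 scale. Gstm1 rose by 2.66 (SE 0.32, adjusted p = 0.00338), and Mgst2 by 2.48 (SE 0.18, adjusted p = 0.00111). Ugt1a9 was fitted at 5.28, which rests on 32 UMIs at day 4 against 0 and 2 at day 1.

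By family, the 32 were 2 of 4 Gsta, 6 of 7 Gstm, 3 of 3 Gstp, 3 of 3 Gstt, 3 of 3 Mgst, 1 of 1 Gstk, 0 of 2 Gsto, 4 of 5 Ugt1a, 1 of 1 Ugt2a, 4 of 4 Ugt2b and 5 of 5 Sult genes. Gsta4 was the one that fell, by 0.67 on the log2 scale (SE 0.16, adjusted p = 0.0251), with 1149 CPM at day 4 against 1899 and 2254 at day 1. Gsta1 was not called (log2 fold change -0.01, SE 0.19, adjusted p = 0.976), and its day-4 level of 1053 lay between the day-1 levels of 1039 and 1360 CPM. Gstm5, Gsto1, Gsto2 and Ugt1a5 were not called either, with adjusted p-values from 0.0946 to 0.815 in the same test. Cell markers moved alongside. The summed enterocyte markers were at 25700 CPM at day 4 against 3671 and 6622 at day 1, and all 8 rose in the edgeR test. Of 8 stem markers, 3 rose and 0 fell (median log2 fold change 0.17), namely Olfm4 by 7.51, Lgr5 by 2.31 and Smoc2 by 1.38. Of the regenerative-state markers 8 of 8 tested fell (median log2 fold change -4.33), as did 7 of 8 cycling markers (median -1.40) and 3 of 9 enteroendocrine markers (median -1.86), and the part of these cells in the change was not tested. With 1 day-1 library left out no spread remains for a test, so members were counted by fold alone. On the log2(CPM + 1) scale, 27 were at least 2-fold above day-1 library 1 (background 8.9%) and 0 below (background 12.5%), and 20 were at least 2-fold above library 2 (background 6.74%) and 0 below (background 10.8%). Gsta4 was under 2-fold from either, at -0.72 and -0.97. Members were mostly higher in day-1 library 2: 31 of the 38 were above library 1, where 49.7% of all genes were. Library 2 also had more enterocyte, enteroendocrine, goblet, Paneth and regenerative marker RNA, and less stem and cycling marker RNA. The enteroendocrine markers, for example, summed to 4011 CPM against 1156 in library 1. The part of these differences was not tested.

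**Figure D5:**
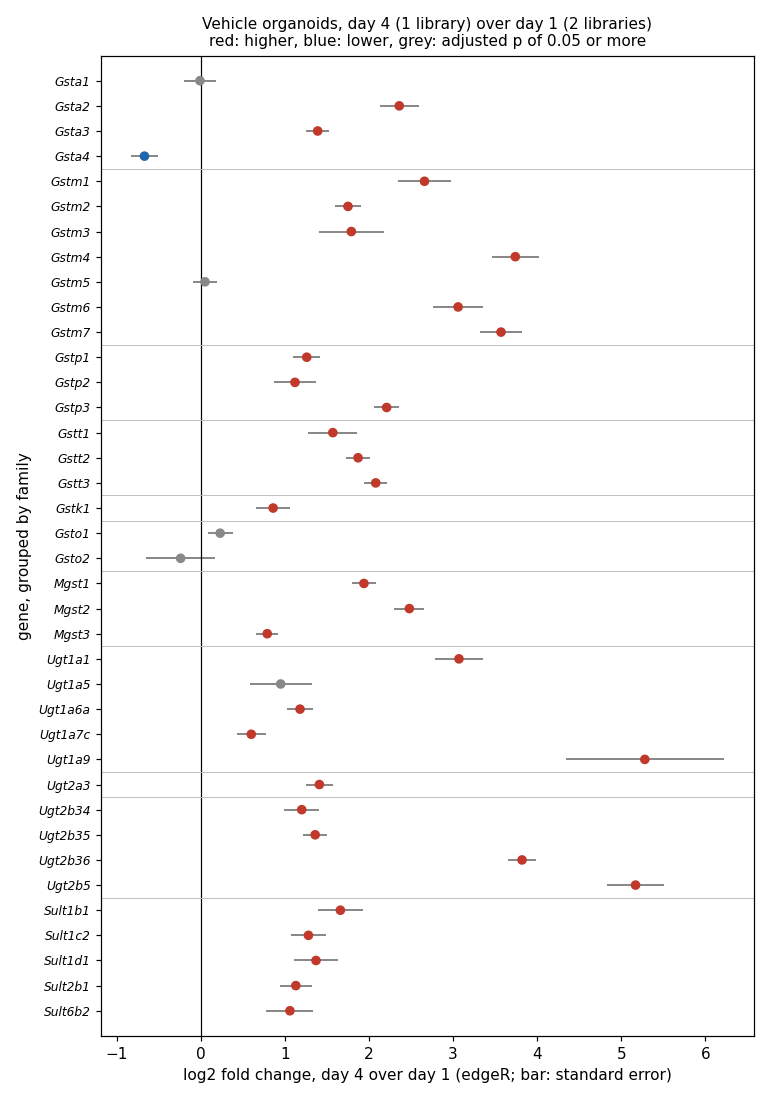
edgeR log2 fold change of vehicle organoids at day 4 (1 library) over day 1 (2 libraries) for the 38 genes; bars are standard errors. Red points rose and blue points fell at an adjusted p under 0.05, and grey points were not called. Gsta4 is the sole blue point, and Ugt1a9, at 5.28 with the widest bar, rests on few UMIs.

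Genes that feed the 3 reactions were read from lists chosen with earlier results of these data known. Their counts stand beside the shares of all genes, which were 7.92% higher and 10.1% lower with the RXR antagonist (median log2 ratio -0.04), 2.71% and 8.03% with retinoic acid (median -0.31) and 0.372% and 0.241% in vitamin A-free medium (median 0.11). The glutathione supply list held 15 genes, not all of which supply it. For example, Ggt1, Chac1 and Chac2 break glutathione down, and Ggh, Mthfd2 and Shmt2 act on folates. Of the 15, 6 passed 2-fold upward and 1 downward in RXR antagonist organoids relative to vehicle, with a median log2 ratio of 0.29. Those higher were Gclc, Gss, Gsr, Slc7a11, Ggh and Chac1. Slc7a11, the cystine importer, had 110.5 CPM with the RXR antagonist and 6.47 in vehicle. Gclc, the rate-limiting enzyme of glutathione synthesis, had 299.9 and 51.8, and Ggh had 134.8 and 17.4. Ggt1, which breaks down glutathione outside the cell, had 0.254 CPM with the RXR antagonist against 57.9 in vehicle, 228-fold lower. With retinoic acid 1 of the 15 was higher, Ggct, and 3 were lower, Chac1, Mthfd2 and Shmt2, and in vitamin A-free medium 0 were called in either direction. Of 14 measured genes listed as other users of glutathione or related to them, 1 was higher and 3 lower with the RXR antagonist. The lower ones included the glutaredoxin Glrx, at 21.7 against 143 CPM in vehicle. With retinoic acid 2 of the 14 were higher, Ltc4s and the lipid peroxide reductase Gpx4.

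The 10 genes of UDP-glucuronic acid supply had 0 calls in each of the 3 day-4 comparisons. Of 11 measured genes of sulfate supply, 1 was higher and 5 lower with the RXR antagonist, and 2 were higher and 3 lower with retinoic acid. Papss2, which makes PAPS, had 14.7 CPM with the RXR antagonist, 403 with retinoic acid, 50.7 in vitamin A-free medium and 137 in day-4 vehicle, with 11.3 and 17.0 at day 1. That is 9.30-fold below vehicle with the RXR antagonist and 2.93-fold above it with retinoic acid, and it was the one gene of the list called in vitamin A-free medium, at 2.71-fold lower. Slc26a6, an apical anion exchanger, had 1.90 CPM with the RXR antagonist against 163 in vehicle. Suox, the sulfite oxidase that forms sulfate, had 37.2 against 2.00. With retinoic acid the sulfate transporter Slc26a2 had 130.5 CPM against 20.5 in vehicle. Of 11 exporters of conjugates and related carriers, 2 were higher and 4 lower with the RXR antagonist, and 3 were higher and 1 lower with retinoic acid. Abcc2, the apical pump for glutathione and glucuronic acid conjugates, had 89.3 CPM with the RXR antagonist, 580.1 with retinoic acid and 265 in vehicle. Abcg2, an apical pump for sulfate conjugates, had 14.5 with the RXR antagonist against 114 in vehicle, and Slco2b1 had 0 UMIs against 1525, at least 480-fold lower when set against 3 UMIs.

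Some genes of sulfate and glucuronic acid supply also rose by day 4. In the same edgeR test, in which 17.3% of all genes rose and 16.9% fell, 5 of 10 genes of glucuronic acid supply rose and 0 fell, and 6 of 11 of sulfate supply rose and 1 fell. Ugdh, which makes UDP-glucuronic acid, rose by 1.96 on the log2 scale (SE 0.16, adjusted p = 0.00129) and Papss2 by 3.46 (SE 0.24, adjusted p = 0.00111). Of the glutathione supply list 4 of 15 rose and 2 fell, Gss and Ggct. Ggt1 rose by 7.53 (SE 0.34, adjusted p = 0.000527), with 57.9 CPM at day 4 against 0.208 and 0.506 at day 1. Of the exporters 5 of 11 rose and 5 fell.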

How the data were processed

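The submitters' processing notes name bcl2fastq 2.17, Cell Ranger 3.1.0 and the build GRCm38, with no further detail. The deposited matrices hold raw UMI counts per gene and cell. Every deposited barcode had at least 1001 genes and under 10% mitochondrial UMIs, so the authors' matrices appear filtered, and a filter of 500 genes, 1000 UMIs and 20% mitochondrial UMIs removed 0. Doublets were taken as the top-scoring barcodes by Scrublet (scanpy 1.11.5), 0.8% per 1000 barcodes, which removed 2.86% to 4.47% per library; its own threshold marked 0% to 1.35%. UMIs of the kept cells were summed per library, divided by their total and scaled to 1000000 (CPM).

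Day-4 ratios use log2(CPM + 1) and a 2-fold call. Vehicle day 4 against day 1 was tested with edgeR 4.0.16 (quasi-likelihood, TMM, R 4.3.3) and checked with DESeq2 1.42.0, and the code was tested on simulated data. Counting intervals are exact at 95%. Cells were clustered (2000 variable genes without the 38 members, 30 components, 15 neighbours, Leiden resolution 1), and classes of 50 or more cells were summed. Named genes were all members at 10 CPM or more in a library, up to 3 lower ones per family, and up to 4 per pathway list and comparison. Members and lists were chosen with earlier results of these data known. Gene positions are from GENCODE M21. Protein sequences were not used here.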

Additional observations from a re-analysis of the deposited data

How the results depend on the processing

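Without a replicate at day 4, only settings could be varied there. The RXR antagonist counts (4 higher, 11 lower) kept within 1.5 times under each setting but a pseudocount of 5 CPM (2 higher). The retinoic acid counts (8 higher, 2 lower) depended on scaling: TMM factors gave 14 and 1, DESeq2 size factors 16 and 1, and ratios relative to the median of all genes 14 and 1. A pseudocount of 5 CPM gave 1 lower and a 1.5-fold call 14 higher. Retinoic acid gave 2 higher and 0 lower in stem-like cells alone, and 1 higher in enterocyte-like cells alone. The vitamin A-free counts (0 higher, 1 lower) had 2 lower with a pseudocount of 0.1 CPM, 6 with a 1.5-fold call, 1 higher and 0 lower in stem-like cells, 0 lower in enterocyte-like cells and 2 lower in goblet-like cells. In goblet-like cells alone 3 log2 ratios had the opposite sign, Gsta3 with the RXR antagonist (-0.08, 57 against 63 UMIs) and, with retinoic acid, Gstk1 (-0.34, 5 against 8 UMIs) and Sult1c2 (0.24, 7 against 7 UMIs), counts too small to give a direction. The cause of these shifts was not tested. The RXR antagonist could not be compared in stem-like or enterocyte-like cells, which number under 50 there. From day 1 to day 4, leaving out a day-1 library leaves no spread for a test, and a 2-fold call with no test in its place gave 20 to 27 members higher and 0 lower; 2-fold against each day-1 library, also with no test, gave 20 and 0. These changed the call rule as well as the libraries. No filter on low counts in edgeR gave 0 that fell. The goblet-like and relative-to-median settings were chosen after seeing the data. No paired analysis was possible because each day-4 group is 1 library and no label ties a library to a mouse. Depth limits the genes under 10 CPM and the classes with few cells: 3 UMIs equal 0.0479 to 0.0635 CPM in whole libraries.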

Other observations

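Phase I enzymes often prepare compounds for conjugation. Of 25 measured, 4 passed 2-fold upward and 16 downward in RXR antagonist organoids relative to day-4 vehicle, where 7.92% of all genes were higher and 10.1% lower. With retinoic acid 11 were higher and 2 lower (2.71% and 8.03% of all genes), and in vitamin A-free medium 0 were higher and 2 lower (0.372% and 0.241%). Cyp2b10 had 1.40 CPM with the RXR antagonist, 1062 with retinoic acid and 436 in vehicle. Cyp3a25 had 0 UMIs with the RXR antagonist against 6252 in vehicle, at least 1970-fold lower when set against 3 UMIs. Akr1b8, an aldo-keto reductase, had 1037 CPM with the RXR antagonist, 421 with retinoic acid, 20.2 in vitamin A-free medium and 45.0 in vehicle. Fmo5 had 51.3 CPM in vitamin A-free medium and 292.0 in vehicle, 5.69-fold lower. Between day 4 and day 1 of vehicle organoids, 17 of 24 tested rose and 3 fell in the edgeR test, where 17.3% of all genes rose and 16.9% fell.

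Of 14 core targets of the oxidative stress factor NRF2, 7 were higher and 0 lower with the RXR antagonist. Of all genes, 7.92% were higher and 10.1% lower there. The median log2 ratio of the 14 was 0.95, against -0.04 over all genes. They overlap the glutathione supply list in Gclc, Gclm, Gsr and Slc7a11. Hmox1, which breaks down heme, had 88.6 CPM with the RXR antagonist and 8.43 in vehicle. With retinoic acid 2 were higher, Me1 and Cat, and Hmox1 was lower (2.71% and 8.03% of all genes). In vitamin A-free medium 0 were called (0.372% and 0.241%). Among 24 regulators measured, 1 was higher and 5 lower with the RXR antagonist, where 7.92% of all genes were higher and 10.1% lower. Vdr, the vitamin D receptor, had 13.8 CPM with the RXR antagonist against 118 in vehicle, Nr1h3 2.83 against 28.2 and Pparg 166 against 31.1. With retinoic acid Ppara had 175 CPM against 52.9 in vehicle.

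The rule left out 26 symbols, 15 of them with 0 UMIs in all 6 libraries. Of the 21 Sult symbols 16 were left out, among them all of Sult2a1 to Sult2a8, and of the 9 Ugt1a symbols 4.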
